A study of Homo sapiens with 8 samples.

Results

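Ribosome footprints on 10 zinc transporter genes were compared across 8 ribosome profiling libraries of G401, a cell line from a rhabdoid tumor of the kidney that lacks SMARCB1, a core subunit of the mSWI/SNF chromatin remodeling complexes. The genes are 6 ZIP importers (SLC39A6, SLC39A7, SLC39A8, SLC39A9, SLC39A10 and SLC39A14) and 4 ZnT exporters (SLC30A1, SLC30A5, SLC30A7 and SLC30A9), of 20719 gene IDs in the count tables. They were chosen by measured values of these libraries: SLC39A8 was selected because its counts rose with SMARCB1 and differed between the lines. The others were listed with it from the same families, of which the 10 genes are only a part. Comparisons of the SMARCB1 line with and without doxycycline, and of the lines, are therefore given for these 10 genes as descriptions without a p-value, and the counts past a threshold in them are printed only beside those of all genes.

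The SMARCB1 line carries doxycycline-inducible SMARCB1 and the GFP line carries doxycycline-inducible GFP as its control, both in the same SMARCB1-deficient G401 background. Each line received 0.1 μg/ml doxycycline (SMARCB1 Dox, GFP Dox) or the equivalent DMSO (SMARCB1 DMSO, GFP DMSO) for 12 h, and each of the 4 groups holds 2 libraries, each condition pooled from 6 plates per the study's methods. The study's methods describe the experiments as duplicates. Neither they nor the labels say whether the libraries of a group came from separate cultures. The p-values therefore measure only the spread between these libraries, which may be technical. Each construct is represented by 1 derived line, and the sources used here do not say whether it is a clone, so what the transgene does and how the lines otherwise differ cannot be told apart when the lines are compared.

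Zinc is required by many enzymes and transcription factors, and cells hold its free level within narrow limits. ZIP proteins (SLC39 family) move zinc into the cytosol from outside the cell or from organelles, and ZnT proteins (SLC30 family) move it out of the cytosol into organelles or out of the cell. SLC39A8 (ZIP8) and SLC39A14 (ZIP14) also carry manganese and iron. Metallothioneins bind zinc in the cytosol, and MTF1 is the zinc-sensing transcription factor that switches on metallothionein genes and SLC30A1 when zinc is high.

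The listed ZIP genes differ from each other at the metal-binding site, and the coding sequence of this site is printed here because it separates SLC39A8 and SLC39A14 from the others. The sequences were read from the GRCh38 genome along GENCODE transcripts, coding strand, 5′ to 3′, with introns left out. Capitals mark the 27 bases that code for the metal-binding motif, with the flanking 18 coding bases on each side in lower case.
SLC39A6: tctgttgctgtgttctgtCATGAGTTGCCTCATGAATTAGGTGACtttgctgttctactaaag
SLC39A7: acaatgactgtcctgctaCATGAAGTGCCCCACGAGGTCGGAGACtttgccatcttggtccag
SLC39A8: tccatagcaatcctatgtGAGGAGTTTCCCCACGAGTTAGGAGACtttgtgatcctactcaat
SLC39A10: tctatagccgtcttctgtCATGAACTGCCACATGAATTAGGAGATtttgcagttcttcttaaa

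The first codon of the motif is CAT, for histidine, in SLC39A6 (residue 635 of 755), SLC39A7 (residue 358 of 469) and SLC39A10 (residue 709 of 831). It is GAG, for glutamic acid, in SLC39A8 (residue 343 of 460), and SLC39A14 also has glutamic acid there (residue 376 of 492). The motif was not found in SLC39A9, whose protein has 307 residues. The printed stretches lie at chr18:36111227-36112540 on the minus strand for SLC39A6, chr6:33203023-33203085 on the plus strand for SLC39A7, chr4:102267652-102267911 on the minus strand for SLC39A8 and chr2:195718293-195728181 on the plus strand for SLC39A10. They are coding exon sequence, in 1 exon in SLC39A7 and split by an intron in the other 3. None of the 30-base stretches of the coding exons of 9 of the 10 genes occurred elsewhere on the primary chromosomes. In SLC30A5, 18 of 1831 did (0.983%). None of the 10 genes shared coding bases with another annotated gene.

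The libraries held between 5924443 and 14000039 counts on genes, and values are given as raw counts and as CPM, the count scaled to a common library total with TMM factors. SMARCB1 itself was read 2553 and 1750 times in SMARCB1 Dox and 0 times in the other 6 libraries, which matches the labels. Of the rhabdoid markers, VIM, KRT8 and KRT18 were read in every library, and MUC1 was low at 0.16 to 4.14 CPM. CD99 had no counts under its ID on X or under that of its pseudoautosomal copy on Y. Reads that match both copies have no unique alignment, so a lack of counts need not mean a lack of footprints. The 8 markers of leukocytes, endothelium, epithelium and red cells summed to 0.334 to 1.99 CPM per library, with PTPRC, CD3E and CD14 at 0 in all of them. GFP Dox replicate 1 stood apart: 56.4% of its entries were reads without a unique alignment, against 25.6% to 39.7% in the other 7 libraries, and the correlation of the GFP Dox pair (0.95 across genes) was the lowest of the 4 replicate pairs. Values that rest most on this library are given with and without it. Levels here are footprints per gene, and less messenger RNA and fewer ribosomes per messenger RNA cannot be told apart, because the RNA-seq of the study was not analysed here.

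SLC39A8 (chr4:102251080-102431258, minus strand, 1569 coding bases) carries zinc, manganese and iron into the cell and showed the widest spread of the 10 genes. It had 1 count in each of the 2 SMARCB1 DMSO libraries (0.17 and 0.078 CPM), and in SMARCB1 Dox it reached 36 and 11 counts (3.01 and 1.74 CPM). The GFP line had 293 and 247 counts of it under DMSO (24.1 and 17.2 CPM) and 207 and 120 under Dox (34.3 and 17.8 CPM). The 4 libraries of the SMARCB1 line all lay below the 4 of the GFP line, and within the SMARCB1 line the Dox libraries lay above the DMSO libraries.

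The group means of SLC39A8 were 0.122 ± 0.0629 CPM in SMARCB1 DMSO, 2.38 ± 0.897 CPM in SMARCB1 Dox, 20.6 ± 4.91 CPM in GFP DMSO and 26.0 ± 11.7 CPM in GFP Dox (SD, n = 2 each). The ranges of the GFP groups overlapped, and no other neighbours in this order did. After scaling for depth, the 47 counts of SMARCB1 Dox were 24.2 times the 2 counts of SMARCB1 DMSO. The exact 95% binomial interval was 6.35 to 206 and covers counting error only. SLC39A8 was chosen by this difference, so the interval is a description and not a test. Leaving out each SMARCB1 Dox or SMARCB1 DMSO library in turn gave 15.4 to 33.0 times, the first without SMARCB1 DMSO replicate 2. The fitted log2 fold was 4.36 (SE 0.78).

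With SMARCB1 induced, SLC39A8 still stood below the GFP line. GFP DMSO was 191 times SMARCB1 DMSO (interval 52.8 to 1590, and 122 times without SMARCB1 DMSO replicate 2). GFP Dox was 9.92 times SMARCB1 Dox (interval 7.29 to 13.8). These intervals too are descriptions, since the choice of SLC39A8 used the difference between the lines. The ratio under Dox was 6.90 without GFP Dox replicate 1 and ranged up to 14.6 when single libraries were left out. The fitted log2 differences of the SMARCB1 line against the GFP line were -7.42 (SE 0.67) under DMSO and -3.39 (SE 0.45) under Dox. SLC39A8 passed the filter on low counts through the groups in which it was high, since SMARCB1 DMSO had 2 counts in all.

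**Figure D1:**
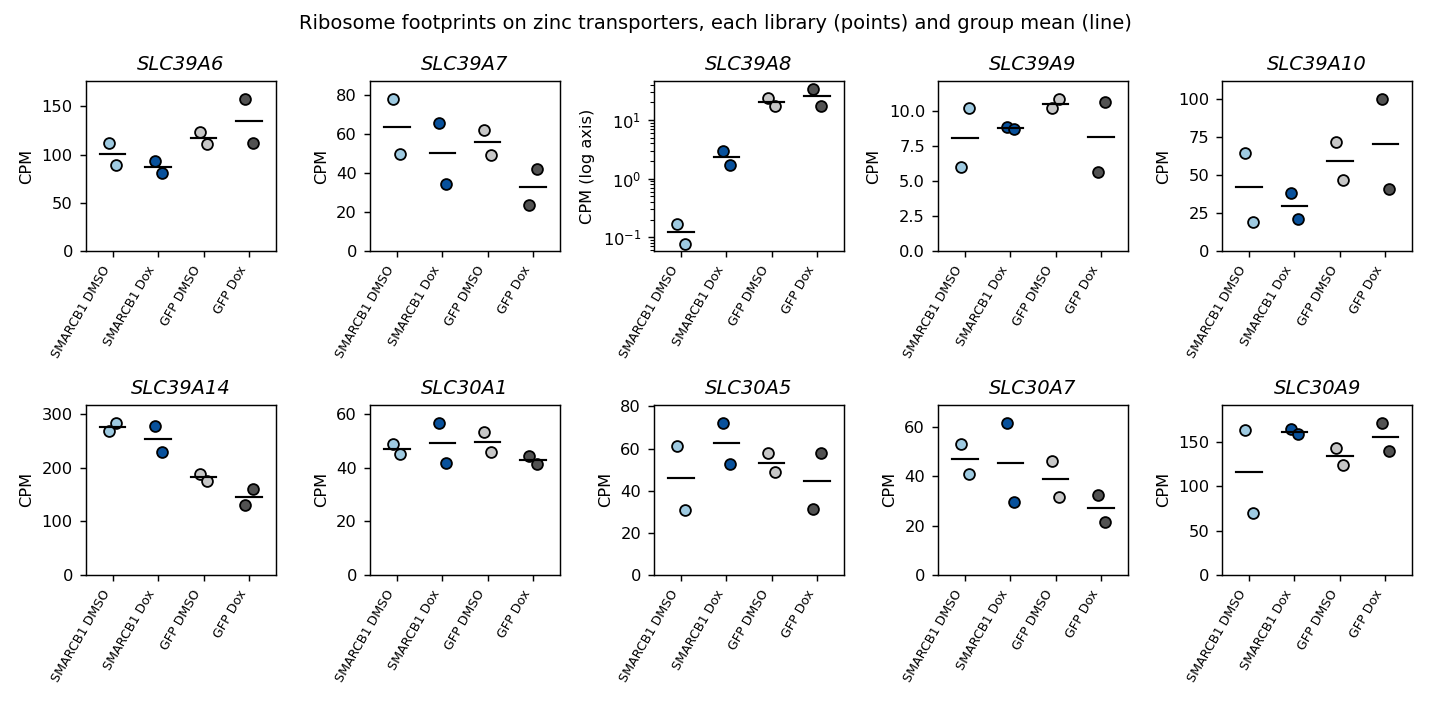
CPM of the 10 zinc transporters (1 panel each, linear axes from 0 except the log axis of SLC39A8) in each of the 8 libraries (points, 2 per group) with the group mean (line). SLC39A8 climbs from 0.078 CPM in SMARCB1 DMSO to 34.3 CPM in GFP Dox, and SLC39A14 is the only other gene whose SMARCB1 line and GFP line do not overlap.

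SLC39A14 (chr8:22367278-22434129, plus strand), the nearest of the listed relatives of SLC39A8 in what it carries, ran the other way between the lines. It had 268 and 284 CPM in SMARCB1 DMSO and 277 and 230 CPM in SMARCB1 Dox. The GFP line showed 189 and 176 CPM under DMSO and 132 and 161 CPM under Dox. All 4 libraries of the SMARCB1 line lay above all 4 of the GFP line, at 229.7 to 283.6 CPM against 131.5 to 189.3 CPM. The fitted log2 difference of the lines was 0.60 (SE 0.23) under DMSO and 0.79 (SE 0.23) under Dox, and within the SMARCB1 line Dox against DMSO gave -0.12 (SE 0.23). Both differences between the lines were under the 2-fold threshold. SLC39A8 and SLC39A14 were the 2 of 10 listed genes whose lines did not overlap over 4 against 4 libraries, a pattern shown by 17.6% of the 11097 genes tested.

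SLC39A6 and SLC39A10 are close relatives that import zinc at the plasma membrane and can form a complex with each other. SLC39A10 (chr2:195575977-195737702, plus strand) had 64.4 and 19.6 CPM in SMARCB1 DMSO, 38.4 and 21.6 CPM in SMARCB1 Dox, 71.5 and 46.8 CPM in GFP DMSO, and 99.8 and 40.7 CPM in GFP Dox. Its SMARCB1 DMSO replicates differed 3.29-fold, the most of any replicate pair of the 10 genes. SLC39A6 (chr18:36108531-36129385, minus strand) had 112 and 89.4 CPM in SMARCB1 DMSO, 93.1 and 80.7 CPM in SMARCB1 Dox, 123 and 111 CPM in GFP DMSO, and 157 and 112 CPM in GFP Dox. In both genes the 2 SMARCB1 Dox libraries lay below the 2 GFP Dox libraries, with log2 differences of -1.21 (SE 0.50) for SLC39A10 and -0.63 (SE 0.25) for SLC39A6, while the ranges under DMSO overlapped. Without GFP Dox replicate 1 these differences were -0.43 for SLC39A10 and -0.37 for SLC39A6. Dox against DMSO in the SMARCB1 line gave -0.46 (SE 0.50) for SLC39A10 and -0.21 (SE 0.25) for SLC39A6, with overlapping ranges. For SLC39A10 this value turned to 0.63 without SMARCB1 DMSO replicate 1 and was -1.09 without SMARCB1 DMSO replicate 2.

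SLC39A7 (chr6:33200305-33204439, plus strand) releases zinc from the endoplasmic reticulum into the cytosol. It ranged from 34.2 to 77.7 CPM in the SMARCB1 line and from 23.7 to 62.0 CPM in the GFP line, with its lowest value in GFP Dox replicate 1. SLC39A9 (chr14:69398015-69462390, plus strand), a shorter member of the family found in the Golgi and at the cell surface, had the fewest counts of the 10 genes, 714 over the 8 libraries. It ranged from 6.005 to 10.2 CPM in the SMARCB1 line and from 5.62 to 10.8 CPM in the GFP line. Neither gene separated the lines, nor Dox from DMSO in the SMARCB1 line, where the log2 folds were -0.34 (SE 0.35) for SLC39A7 and 0.10 (SE 0.41) for SLC39A9. Leaving out single libraries moved these from -0.89 to 0.05 for SLC39A7 and from -0.22 to 0.55 for SLC39A9.

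The 4 listed exporters overlapped between the lines and between Dox and DMSO of the SMARCB1 line. SLC30A1 (chr1:211571568-211579161, minus strand), the exporter at the plasma membrane, was the steadiest of the 10 genes at 41.4 to 56.7 CPM over the 8 libraries. Its log2 fold in the SMARCB1 line was 0.08 (SE 0.25). SLC30A5 (chr5:69093991-69131069, plus strand) and SLC30A7 (chr1:100896076-100981757, plus strand) load zinc into the secretory pathway, where zinc enzymes such as alkaline phosphatases receive it. SLC30A5 ranged from 30.9 to 72.1 CPM and SLC30A7 from 21.5 to 61.5 CPM. Their log2 folds in the SMARCB1 line were 0.46 (SE 0.35) and -0.03 (SE 0.35). Leaving out single libraries moved these from 0.04 to 1.02 for SLC30A5 and from -0.67 to 0.39 for SLC30A7.

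SLC30A9 (chr4:41990502-42090461, plus strand), which exports zinc from mitochondria, had 162 and 70.0 CPM in SMARCB1 DMSO, 164 and 159 CPM in SMARCB1 Dox, 143 and 123 CPM in GFP DMSO, and 171 and 139 CPM in GFP Dox. SMARCB1 DMSO replicate 2 stood below the other 7 libraries. The log2 fold in the SMARCB1 line was 0.48 (SE 0.32), and it was -0.01 without that library.

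Whether doxycycline with GFP induction moved these genes was tested in GFP Dox against GFP DMSO. The choice of genes had not used this comparison itself. Its libraries do enter the comparisons of the lines, which the choice used, so its p-values are not free of that choice. Doxycycline and induced GFP come together in GFP Dox and cannot be told apart. None of the 10 was called by edgeR's quasi-likelihood test at a Benjamini-Hochberg adjusted p below 0.05 and a fold above 2, against 0% of the 11097 genes tested. At an unadjusted p below 0.05 edgeR counted 0 of the 10 and 240 of all genes, and DESeq2's Wald test called 0 of the 10. The lowest unadjusted p of the edgeR fit was 0.0518, for SLC39A7 (log2 -0.75, SE 0.35, adjusted p = 1). Without GFP Dox replicate 1 its log2 fold was -0.40.

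SLC39A8 gave a log2 fold of 0.33 (SE 0.38) in GFP Dox against GFP DMSO, with an edgeR Benjamini-Hochberg adjusted p of 1. Without GFP Dox replicate 1 the log2 fold was -0.22. The 10 log2 folds ran from -0.75 to 0.33, and 4 of them were above 0, with a median of -0.23 beside 0.02 over all genes. SLC39A7, SLC39A14 and SLC30A1 had GFP Dox ranges wholly below GFP DMSO, 3 of 10 against 26.3% of all genes tested. An adjusted p of 1 does not show that the groups were alike. In simulated data with the same groups and library sizes (10901 genes), 82% of 4-fold and 23% of 2-fold changes were recovered. The simulation gave every gene the spread typical of its level and held no outlying library like GFP Dox replicate 1. The figures may therefore differ from recovery in the real libraries. Recovery meant a call, which needs a fold above 2, so true 2-fold changes could fail on that threshold alone.

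**Figure D2:**
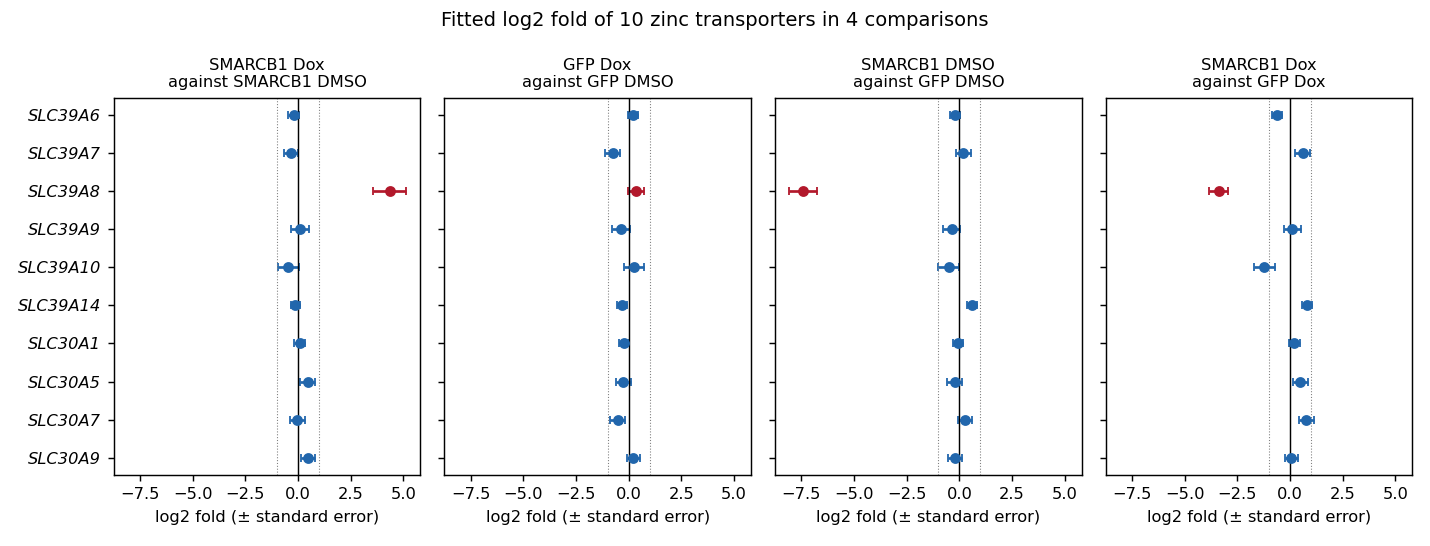
Fitted log2 fold (points) with its standard error (bars) for the 10 zinc transporters in 4 comparisons, each named above its panel, with dotted lines at the 2-fold threshold. SLC39A8 (red) lies at 4.36, 0.33, -7.42 and -3.39 from left to right, and of the other 9 genes (blue) only SLC39A10 passes a dotted line, at -1.21 in the last panel.

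The counts of genes past the threshold are given beside those of all genes. In SMARCB1 Dox against SMARCB1 DMSO, 0 of the 10 listed genes passed the threshold in the edgeR fit. Of all genes tested, edgeR called 0.018% (2 of 11097, both higher, and 552 at an unadjusted p below 0.05). In the DESeq2 fit 1 of the 10 passed, beside 34 of all 11097 genes. Ranges were apart for 1 of 10, SLC39A8, and for 35.6% of all genes. Leaving out SLC39A8, the other 9 had a median log2 fold of -0.03, beside -0.02 over all genes.

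Between the lines under DMSO, 1 of 10 was past the threshold (SLC39A8, lower in the SMARCB1 line), with 4.97% of all genes called. Ranges were apart for 2 of 10, SLC39A8 and SLC39A14, and for 44.8% of all genes. Between the lines under Dox, 1 of 10 was past the threshold (SLC39A8, lower in the SMARCB1 line), with 6.08% of all genes called. Ranges were apart for SLC39A6, SLC39A8, SLC39A10 and SLC39A14, 4 of 10 against 46.1% of all genes. These comparisons were used in the choice of the genes, so nothing is read from their counts. The comparisons share libraries: SMARCB1 DMSO and SMARCB1 Dox each enter 2 of them. GFP DMSO and GFP Dox enter the comparisons of the lines and also GFP Dox against GFP DMSO.

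Per length of coding sequence, SLC39A14 had the highest mean over the 8 libraries among the 24 annotated human zinc transporters listed here. This mean was 122 CPM per kb (range 74.9 to 161). SLC30A9 followed at 81.9 CPM per kb, SLC39A6 at 48.3, and SLC39A1, an importer at the plasma membrane that was not among the 10, at 43.95. The ranges of each of these neighbours overlapped over the 8 libraries. In GFP Dox the order of the first 2 was reversed, at a group mean of 89.7 CPM per kb for SLC30A9 and 83.3 for SLC39A14. SLC39A8 was 15th at a mean of 7.83 CPM per kb, and its range of 0.0497 to 21.8 CPM per kb overlapped those of SLC39A7, SLC39A9, SLC39A10, SLC30A5 and SLC30A7 among the listed genes. By group, SLC39A8 had 0.0780 CPM per kb in SMARCB1 DMSO, 1.52 in SMARCB1 Dox, 13.2 in GFP DMSO and 16.6 in GFP Dox. SLC39A5, SLC39A12, SLC30A2, SLC30A8 and SLC30A10 had 0 counts in every library. Summed per kb, the ZIP genes had 1.51 to 2.45 times the footprints of the ZnT genes, with SMARCB1 DMSO replicate 2 the highest and the other 7 libraries at 1.51 to 1.74.

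**Figure D3:**
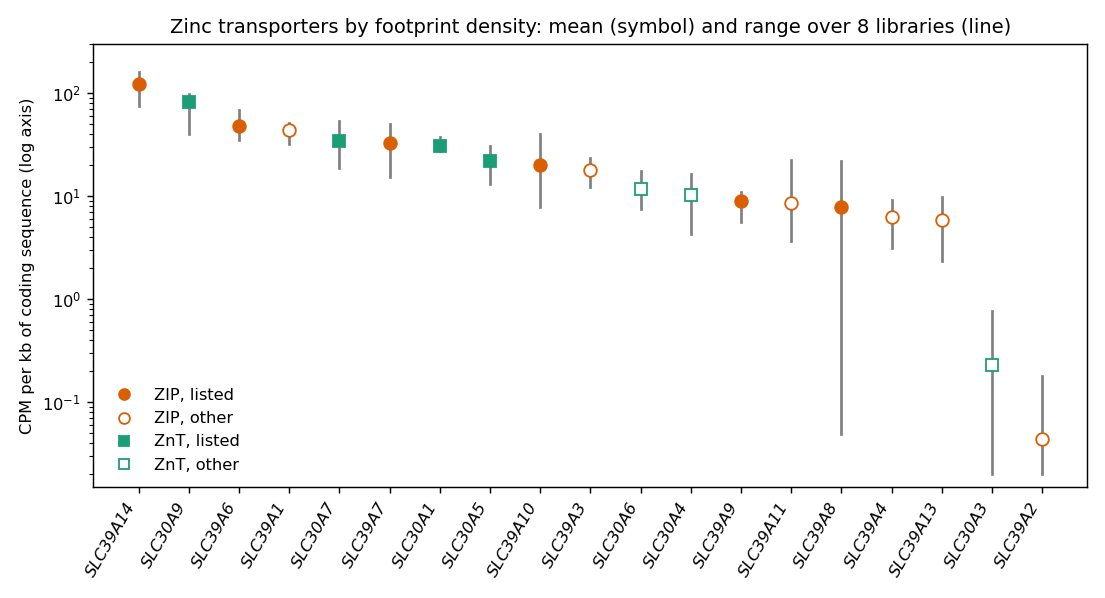
Footprint density of the 19 zinc transporters with counts, as CPM per kb of coding sequence on a log axis, with the mean (symbol) and the range over the 8 libraries (line). Filled symbols are the 10 listed genes and open symbols the others, and lines that reach 0 end at 0.02. SLC39A14 has the highest mean at 122 CPM per kb and SLC39A8 has the longest line of the genes above 1 CPM per kb.

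The other zinc and metal genes were taken from lists of 52 genes that the choice of the 10 had not used, of which 35 had counts and 25 passed the filter. These lists were drawn up with earlier results of these data known, so their tests are not independent of the data. In SMARCB1 Dox against SMARCB1 DMSO, edgeR called 0 of the 25, with 0 at an unadjusted p below 0.05, and DESeq2 called 0. In GFP Dox against GFP DMSO edgeR and DESeq2 likewise called 0, with 0 of the 25 at an unadjusted edgeR p below 0.05. Their median log2 folds were -0.07 and 0.13, beside -0.02 and 0.02 over all genes. Between the lines edgeR and DESeq2 each called 1 of 25 under DMSO and 1 of 25 under Dox, both times NT5E, a share near the 4.97% and 6.08% of all genes that edgeR called. At an unadjusted edgeR p below 0.05 there were 5 of 25 under DMSO, beside 1546 of all 11097 genes. Under Dox there were 4 of 25, beside 2074 of 11097.

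NT5E (CD73), a zinc enzyme on the cell surface that makes adenosine from AMP, reached 330 and 667 counts in SMARCB1 DMSO (55.0 and 52.0 CPM) and 596 and 289 in SMARCB1 Dox (49.9 and 45.8 CPM). The GFP line held 8 counts of it in each of the 2 DMSO libraries (0.658 and 0.556 CPM) and 1 and 2 counts under Dox (0.165 and 0.296 CPM). NT5E was therefore high where SLC39A8 was low. It was higher in the SMARCB1 line by a log2 difference of 6.44 under DMSO (SE 0.36, edgeR Benjamini-Hochberg adjusted p 7.08e-08) and 7.60 under Dox (SE 0.45, edgeR Benjamini-Hochberg adjusted p 9.9e-08). Over the alternatives that kept NT5E, the log2 difference ranged from 6.31 to 6.55 under DMSO and from 7.28 to 8.07 under Dox. The filter that asked for a minimum count in every library removed NT5E and gave no value for it. After scaling for depth, the SMARCB1 line had 87.9 times the counts of the GFP line under DMSO (exact 95% binomial interval 53.8 to 154). Under Dox, 885 against 3 counts gave 207 times (70.6 to 1010), or 164 times without GFP Dox replicate 1. NT5E passed the filter on low counts through the SMARCB1 line, where it was high. Its list was also drawn up with earlier results known, so its p-values between the lines are descriptions. Within the SMARCB1 line, Dox against DMSO gave a log2 fold of -0.16 (SE 0.26), and edgeR did not call it (adjusted p 1).

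Of the 8 other ZIP genes, 5 passed the filter and none was called by edgeR in any of the 4 comparisons. SLC39A1 was even over the groups at 31.3 to 50.3 CPM, and SLC39A3, another importer at the plasma membrane, at 13.1 to 25.1 CPM. SLC39A11 had 33.8 CPM in GFP Dox replicate 1 and 5.47 to 15.5 CPM in the other 7 libraries. Of the 6 other ZnT genes, SLC30A4 and SLC30A6 passed. SLC30A4, an exporter into vesicles, was lower in the SMARCB1 line in both comparisons of the lines, at 5.53 to 12.0 CPM against 14.6 to 21.2 CPM, and was not called (log2 -0.79 and -1.10, SE 0.37 each, edgeR Benjamini-Hochberg adjusted p 0.367 and 0.105).

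Metallothionein counts were near 0. Of 11 metallothionein genes, MT2A had 0 to 37 counts per library, MT1F 2 counts and MT1G 1 count in all, and the other 8 had none. All 30-base stretches of the MT2A and MT1X coding exons occur elsewhere on the primary chromosomes, so a read of that length within an exon has another exact match and the counts are uncertain. The share was 32% to 95% for the other MT1 genes listed and 0% for MT3 and MT4, so a low count of an MT1 gene need not mean few footprints. MTF1 had 4.52 to 9.27 CPM over the 8 libraries. Its log2 fold was 0.57 (SE 0.44) in SMARCB1 Dox against DMSO, where edgeR did not call it (adjusted p 1).

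Iron and manganese handling genes, the other metals that SLC39A8 carries, gave no call for any of the 14 that passed of 18 listed. FTH1, the heavy chain of the iron store ferritin, ranged from 853.7 to 2858 CPM and TFRC, the transferrin receptor, from 422 to 692 CPM. FTH1 and FTL have many processed pseudogene copies, so their counts are uncertain. ATP2C1, a Golgi calcium and manganese pump, ranged from 110 to 253 CPM. TFRC had a log2 difference of 0.59 between the lines under DMSO (SE 0.24, edgeR Benjamini-Hochberg adjusted p 0.232) and of 0.02 under Dox (SE 0.24). It was not the largest in the list: under DMSO the 14 log2 differences ran from -0.77 to 1.14.

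By Pearson correlation of log2 CPM over the 8 libraries, the 5 genes most like SLC39A8 were LIMK2 (0.993), MCAM (0.993), PPP1R14A (0.992), LAYN (0.986) and ZNF608 (0.985). The 8 libraries fall into 2 lines of 4, and much of each value is the difference between the lines, so these are descriptions. MCAM (CD146), a cell adhesion molecule, had 6 counts in each of the 2 SMARCB1 DMSO libraries, 53 and 22 in SMARCB1 Dox, 383 and 490 in GFP DMSO, and 278 and 234 in GFP Dox. LAYN (layilin), a hyaluronan receptor, had 1.84 and 2.88 CPM in SMARCB1 DMSO, 11.7 and 6.66 CPM in SMARCB1 Dox, and 59.5 to 73.5 CPM in the 4 GFP libraries. Both follow the order of SLC39A8 with smaller steps. LIMK2, a kinase of the actin cytoskeleton, moved over 30.1 to 72.8 CPM only. Among the listed transporters the correlation with SLC39A8 was highest for SLC39A6 (0.65) and SLC39A10 (0.58) and lowest for SLC39A14 (-0.88).

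**Figure D4:**
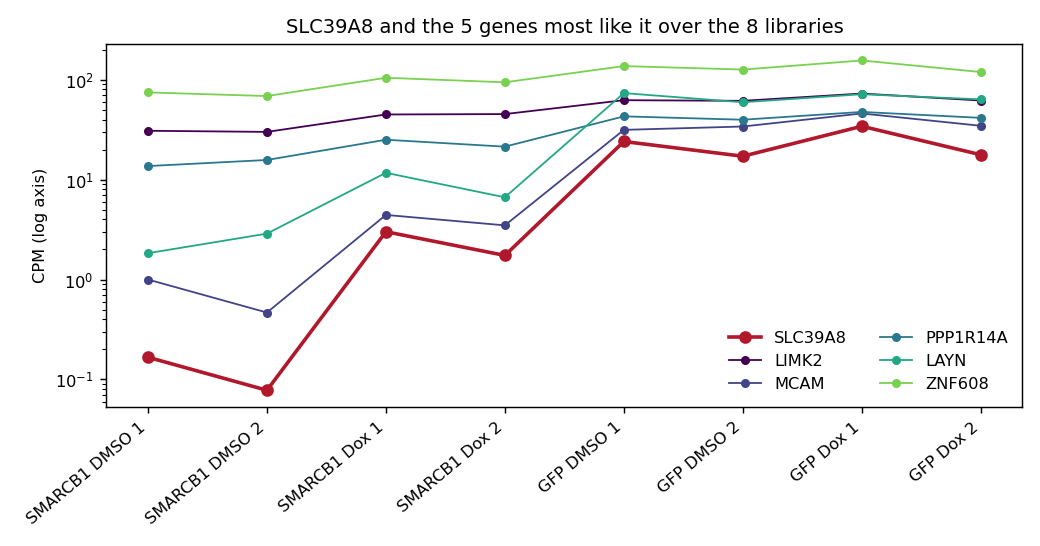
CPM on a log axis in each of the 8 libraries for SLC39A8 (thick red) and the 5 genes with the most similar pattern, where lines only join values of 1 gene. All 6 genes are lowest in the SMARCB1 DMSO libraries, and MCAM and LAYN show the widest steps after SLC39A8.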

How the data were processed

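Ribosome profiling libraries were made by the authors with the RiboLace and LACEseq kits, aligned with STAR to hg38 and counted with HTSeq (intersection-strict, CDS features of GENCODE 42). The handling of adapters, ribosomal RNA, duplicates and the strand setting is not given in the sources used here. The deposited values are raw counts per gene ID. The 5 HTSeq summary rows per file were left out. Symbols, positions and coding lengths came from GENCODE 44 by ID without version, and 293 of 20719 IDs had no match.

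R 4.3.3 with edgeR 4.0.16 (filterByExpr, TMM, a group-means model of the 8 libraries in glmQLFit, glmQLFTest) was used on the counts, and 11097 genes were tested. The standard error was taken from the F statistic. Genes were called at a Benjamini-Hochberg adjusted p below 0.05 and a fold above 2. DESeq2 1.42.0 was an alternative, as were 2 other scalings, 2 other filters, fits on the compared groups only, a replicate block, robust fitting and leaving out each library. Log2 CPM used a prior count of 2 for correlations. Steps were tested on simulated data with 200 changed genes.

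The members and gene lists were chosen with earlier results of these data known. Named genes are the 10 members, SMARCB1, genes called or up to 4 of highest CPM per list, and the 5 most correlated with SLC39A8. SLC39A11, SLC30A4 and the transporters at 0 were named in addition where a value turned on them. Intervals cover counting error only, since no molecular identifiers are stated.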

Additional observations from a re-analysis of the deposited data

How the results depend on the processing

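Of 476 alternative log2 values of the 10 transporters, 24 changed sign, each from a reported value of 0.51 or less in size, and SLC39A8 changed sign once. In the comparisons used to choose the genes, the counts past the threshold are descriptions. In SMARCB1 Dox against SMARCB1 DMSO, 0 of 10 listed genes passed as reported, beside 2 of all 11097 genes tested. DESeq2 gave 1 beside 34 of 11097, no filter gave 1 beside 46 of 14323, and the replicate block gave 1 beside 13 of 11097. Between the lines under DMSO, a minimum of 10 counts in every library gave 0 listed and 0 other genes, beside 288 of 9424. That filter removes SLC39A8 and NT5E. Under Dox the same filter gave 0 and 0, beside 377 of 9424. No filter gave 2 listed genes, beside 833 of 14323, and the replicate block gave 2, beside 734 of 11097. The second gene was SLC39A10 in both settings. Leaving out 1 library gave 1 to 2 listed genes there (2 without GFP Dox replicate 2) and 1 to 6 other genes. The 6, without GFP Dox replicate 2, were NT5E, FTL, SLC39A11, SLC39A13, TMEM165 and SLC40A1, and all genes called rose from 675 to 1372. In GFP Dox against GFP DMSO, leaving out 1 library gave 0 to 1 other genes, SLC39A11 without GFP Dox replicate 2.

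In that comparison leave-one-out log2 folds ran from -0.22 to 0.73 for SLC39A8, -0.064 to 0.42 for SLC39A6, -0.91 to 0.016 for SLC39A9, -0.54 to 0.75 for SLC39A10 and -0.77 to 0.11 for SLC30A5, each changing sign without GFP Dox replicate 1. SLC39A10 was also -0.03 without GFP DMSO replicate 2. The cause was not tested. Replicate numbers were not taken to pair the libraries, since the labels give them no shared batch. Deviations of same-numbered libraries nevertheless correlated positively in all 6 pairs of groups (0.045 to 0.280), above 0.1 in 5 of them. Whether these libraries share a batch was not tested. With the replicate block, all genes called in SMARCB1 Dox against SMARCB1 DMSO rose from 2 to 13. Scaling by library size alone moved the median of all genes to 0.09, -0.06, -0.05 and 0.11 in the 4 comparisons. In simulated SMARCB1 Dox against DMSO (10912 genes), 34% of 2-fold changes were recovered. A call needs a fitted fold above 2, so this figure does not measure the effect of having 2 libraries per group alone. The simulation also left out the spread particular to each gene.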
